A study of Mus musculus with 6 samples.

Results

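The 68 genes described here encode the proteins that build the spliceosome and choose its splice sites: the SR proteins (Srsf), the heterogeneous nuclear ribonucleoproteins (Hnrnp), the Sm core and particle-specific proteins of the small nuclear ribonucleoproteins (Snrp, Sf3a and Sf3b), the U2AF proteins (U2af) and the PRPF proteins (Prpf). They are all protein-coding genes of the count table, 68 of 28564, whose symbol begins with one of these stems followed, for Srsf and Prpf, by a digit. 3 rows that match the pattern but are annotated as pseudogenes were left out. RNA came from epithelial cells sorted from small-intestinal crypts of male mice aged 13 weeks, 3 of them wild type (C57Bl/6) and 3 Apln-/-; the labels name these as biological replicates. Apln encodes the secreted peptide apelin; the sources used here do not give the deleted part of the gene or the mice behind each sample. The cells were sorted as live single cells with EpCAM and CD44 on their surface and without CD31 and CD45, and their RNA was amplified before sequencing. Knockout is written below for Apln-/-; knockout libraries 1, 2 and 3 follow the replicate numbers of the labels and are the table's columns KO1, KO3 and KO4.

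Splicing removes introns from the transcript of a gene. The spliceosome assembles anew on each intron: the U1 particle pairs with the 5′ splice site, U2AF binds the 3′ splice site, the U2 particle with its SF3A and SF3B proteins engages the branch point, and the U4/U6.U5 tri-snRNP then joins and is rearranged into the catalytic form. SR proteins mostly favour the use of nearby exons, and hnRNP proteins often oppose it, so the balance of both families sets much of alternative splicing in dividing tissues such as the crypt.

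The start sites of 59 of the 68 genes could be matched by symbol to RefSeq (GRCm38.p6), in 80 windows of 300 bases (250 before the start and 50 after it). A search of both strands for 4 motifs, none of which contains another, gave different shares for the genes of U1 and U2 snRNP proteins and for the hnRNP genes. The core of an ETS-family site, CCGGAAG, was found for 8 of 11 genes of U1- and U2-specific proteins (72.7%), 2 of 18 hnRNP genes (11.1%), 20 of 59 members (33.9%) and 9.93% of all RefSeq genes. The CCAAT box, CCAAT, went the other way, with 13 of 18 hnRNP genes (72.2%) and 2 of 11 U1- and U2-specific genes (18.2%) against 41.1% of all genes. The GC box, GGGCGG, was found for 10 of 11 SR genes (90.9%), 14 of 18 hnRNP genes (77.8%) and 38.2% of all genes. The E-box CACGTG was found for 9 of 59 members (15.3%) and 8.09% of all genes. A match describes the letters of the window and does not show that a factor binds there.

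The stretches below run from 120 bases before the RefSeq start to 30 after it, 5′ to 3′ on the strand of the gene. They are shown for genes that the results turn on, whether or not they follow the shares above; capitals mark CCGGAAG and CCAAT or their reverse complements. Sf3b6 and Sf3a2 encode U2 snRNP proteins, and each has at least 1 ETS core within 85 bases before its start. They lie at chr12:4817488-4817637 and chr10:80798615-80798764, both on the plus strand.
Sf3b6: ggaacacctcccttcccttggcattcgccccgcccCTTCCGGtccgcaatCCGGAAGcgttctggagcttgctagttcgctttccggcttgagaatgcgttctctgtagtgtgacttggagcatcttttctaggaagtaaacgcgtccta
Sf3a2: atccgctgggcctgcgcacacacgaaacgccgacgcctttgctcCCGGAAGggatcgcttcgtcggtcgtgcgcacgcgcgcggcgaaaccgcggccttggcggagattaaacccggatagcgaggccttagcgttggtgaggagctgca

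3 Sm core genes are shown because their log2 fold changes between the genotypes were the highest of all members. Snrpe, at chr1:133610251-133610400 on the minus strand, carries the ETS core on both strands in overlapping letters just after its start, Snrpd2, at chr7:19149718-19149867 on the plus strand, carries neither motif in this stretch, and Snrpg, at chr6:86371420-86371569 on the plus strand, carries a CCAAT box, with an ETS core farther out, 145 bases before its start.
Snrpe: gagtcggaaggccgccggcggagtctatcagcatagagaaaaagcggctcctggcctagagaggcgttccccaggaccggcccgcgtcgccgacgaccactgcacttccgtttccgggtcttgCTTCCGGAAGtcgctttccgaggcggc
Snrpd2: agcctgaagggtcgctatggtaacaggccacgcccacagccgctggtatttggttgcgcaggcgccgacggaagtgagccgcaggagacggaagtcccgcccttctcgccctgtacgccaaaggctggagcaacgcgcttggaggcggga
Snrpg: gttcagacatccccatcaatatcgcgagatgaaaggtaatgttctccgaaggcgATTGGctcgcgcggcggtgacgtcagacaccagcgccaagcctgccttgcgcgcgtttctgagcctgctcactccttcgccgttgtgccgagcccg

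The SR genes Srsf1, at chr11:88047253-88047402, and Srsf3, at chr17:29032540-29032689, both on the plus strand, and the hnRNP genes Hnrnpa0, at chr13:58128527-58128676, and Hnrnpc, at chr14:52103992-52104141, both on the minus strand, carry CCAAT boxes and no ETS core here. The 2 hnRNP genes with an ETS core are also shown. Hnrnpf, at chr6:117900220-117900369 on the plus strand for the first of its 4 RefSeq windows, has it 50 bases before this start and in 2 other windows. Hnrnpd, at chr5:99978909-99979058 on the minus strand, carries neither motif in this stretch and has an ETS core 178 bases before its start.
Srsf1: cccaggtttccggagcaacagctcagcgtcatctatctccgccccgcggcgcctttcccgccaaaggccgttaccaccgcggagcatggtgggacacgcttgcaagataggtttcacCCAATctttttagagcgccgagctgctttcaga
Srsf3: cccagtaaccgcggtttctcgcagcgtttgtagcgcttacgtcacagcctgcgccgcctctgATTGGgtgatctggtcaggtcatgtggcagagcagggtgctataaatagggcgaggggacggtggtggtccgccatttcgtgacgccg
Hnrnpf: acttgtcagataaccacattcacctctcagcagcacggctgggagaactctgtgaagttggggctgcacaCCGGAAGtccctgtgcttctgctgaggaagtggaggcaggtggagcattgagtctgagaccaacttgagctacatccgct
Hnrnpa0: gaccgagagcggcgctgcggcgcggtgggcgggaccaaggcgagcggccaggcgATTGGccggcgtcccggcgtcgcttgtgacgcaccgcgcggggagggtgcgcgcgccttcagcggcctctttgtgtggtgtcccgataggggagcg
Hnrnpc: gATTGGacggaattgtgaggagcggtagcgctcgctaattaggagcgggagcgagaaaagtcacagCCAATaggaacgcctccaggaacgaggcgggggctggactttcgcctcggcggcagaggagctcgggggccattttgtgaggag
Hnrnpd: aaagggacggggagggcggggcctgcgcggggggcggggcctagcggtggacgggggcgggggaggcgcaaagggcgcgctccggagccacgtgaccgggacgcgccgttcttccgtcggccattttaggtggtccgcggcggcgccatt

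Library totals were 23046880 to 26513481 counts, of which 70.7% to 78.9% fell on the 5 most abundant entries. Outside these entries 6037237 to 7616648 counts were left in a wild-type library and 5144725 to 5623112 in a knockout library. Apln itself, on the minus strand of the X chromosome, was counted 29, 7 and 5 times in the wild type and 0 times in every knockout library; a count of 0 allows up to 3 counts, for counting error only. The sort markers Epcam and Cd44 were summed with the epithelial genes Cdh1 and Krt8. Together they were at 772 to 958 CPM in wild type and 900 to 995 in knockout. CPM are read counts scaled to library size, here with the trimmed mean of M-values (TMM). None of 4 endothelial and 4 neural and glial markers found in the table passed the count filter, whereas all 5 blood-derived markers (3.12 to 5.65 CPM summed) and all 5 stromal and muscle markers did. Ptprc, which encodes CD45, was at 2.77 ± 0.567 CPM in wild type against 1.42 ± 0.335 in knockout (-0.96 ± 0.39, adjusted p = 0.264). Its groups did not overlap. Of the 5 blood-derived markers 2 had a negative and 3 a positive log2 fold change. Stromal and muscle markers summed to 22.9, 18.2 and 1.07 CPM in wild type against 8.58, 32.1 and 7.37 CPM in knockout, and goblet cell markers to 1890, 1243 and 3978 CPM against 1558 to 1693 CPM, so wild-type library 3 was the lowest of all in the first and the highest in the second. The sums of tuft cell markers did not overlap between the genotypes, at 74.0 to 98.9 CPM in wild type and 24.5 to 59.4 in knockout. Those of dividing, Paneth and enteroendocrine cells did not overlap either, but each overlapped once its gene of highest level was left out. Of 5 markers of dividing cells, Mki67 was at 355 ± 46.0 CPM in wild type against 201 ± 32.9 in knockout (-0.82 ± 0.17, adjusted p = 0.0628), and the other 4 summed to 196 to 212 CPM and 197 to 228. Paneth markers without Lyz1 summed to 142 to 322 and 240 to 463 CPM, and enteroendocrine markers without Chgb to 144.0 to 312 and 90.5 to 144.5 CPM. Among these, the groups did not overlap for Mptx2 (1.30 ± 0.26, adjusted p = 0.0556) and Chga (-1.19 ± 0.23, adjusted p = 0.0532). All 5 Paneth markers had a positive log2 fold change. Of 5 enteroendocrine markers 4 were negative and 1 positive, and of 5 dividing markers 2 were negative and 3 positive. The part of the cell type markers in the results below was not tested. In bulk RNA, more or fewer cells of a type and more or less RNA per cell cannot be told apart.

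67 of the 68 genes passed the filter on low counts, and their levels were higher and steadier than those of most genes. The median member was at 23.7 CPM against 5.07 over the 15122 genes tested, and the median coefficient of variation over 3 libraries was 13.8% in wild type and 9.68% in knockout, against 25.7% and 17.6%. The member below the filter was U2af1l4, which encodes a relative of the small U2AF subunit, with 7, 4 and 32 counts in wild type and 4, 14 and 4 in knockout. To compare genes with each other, CPM were divided by the length in kilobases of the longest coding transcript. On that scale Hnrnpa2b1, whose protein binds RNA in the nucleus and sorts some RNAs for transport, led all members at 179 CPM per kilobase, ahead of Srsf5 at 65.2, Hnrnpab at 59.7, Srsf2 at 58.5 and Srsf3 at 45.2. Subunits of the particles were lower: the highest U1 or U2 protein, Snrpa, which binds the U1 RNA, was at 22.0 CPM per kilobase, and Sf3b1, the largest SF3B subunit, at 15.9. The highest Sm core gene, Snrpd1, was at 15.1, and the PRPF genes Prpf8 and Prpf38b were both at 15.8. Members of 1 stable complex were spread widely, as the Sm core ran from 15.1 for Snrpd1 down to 1.17 for Snrpn, a Sm gene known chiefly from neurons.

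**Figure D1:**
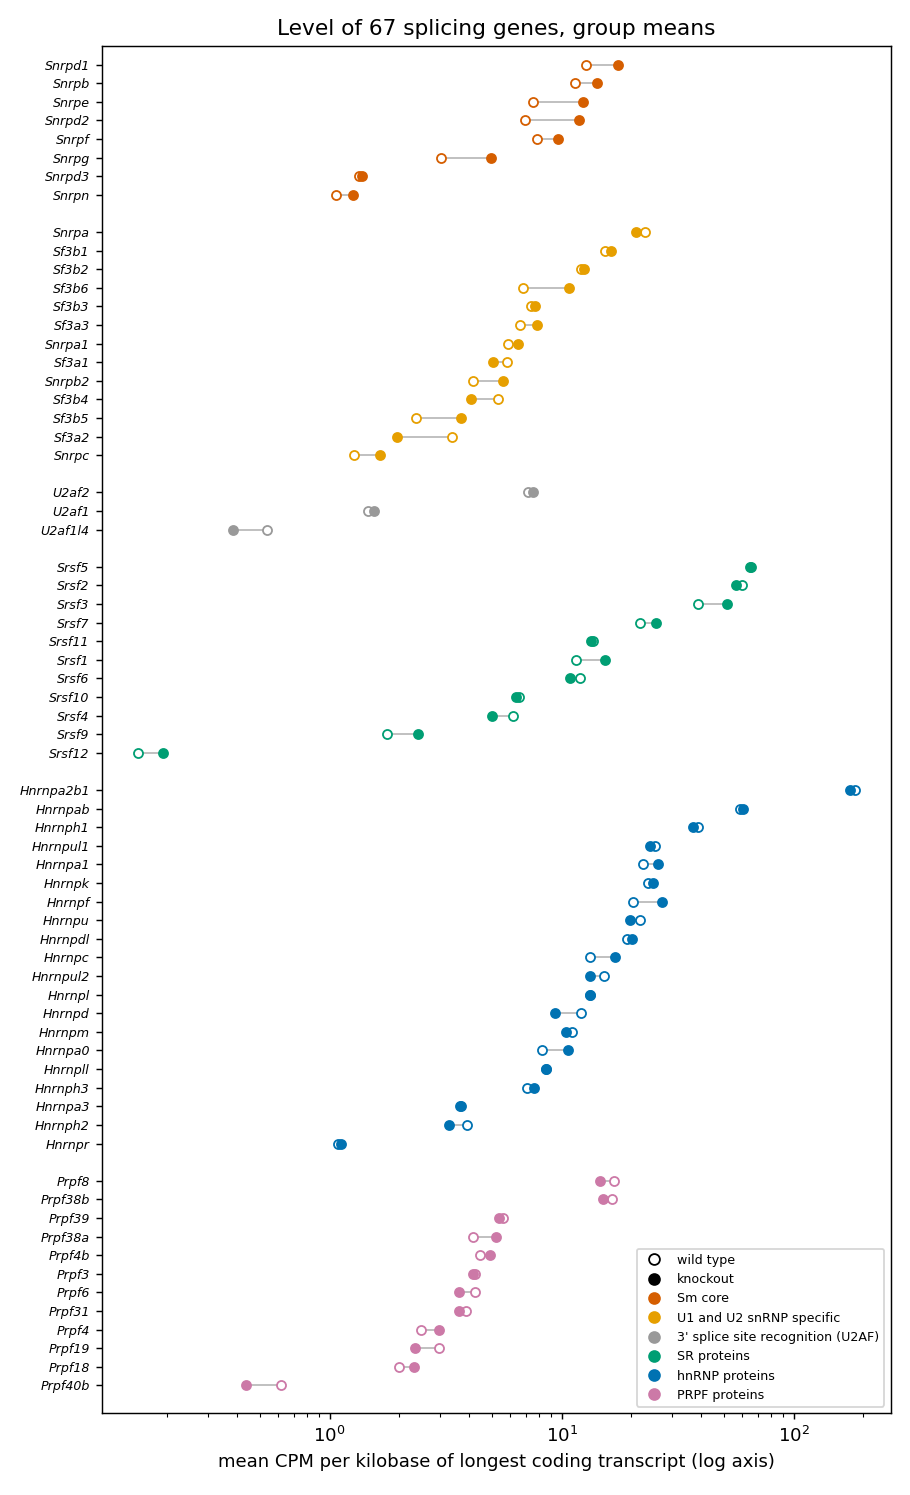
Mean level of 67 of the 68 genes in wild type (open circles) and knockout (filled circles), in CPM per kilobase of the longest coding transcript on a log axis, grouped and coloured by role. The distance between the circles of 1 gene is small beside the range from Srsf12 at 0.17 to Hnrnpa2b1 at 179.

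The genotypes were compared with the quasi-likelihood test of edgeR, with Benjamini-Hochberg adjusted p over all genes tested. None of the 67 members passed at an adjusted p under 0.05, where 26 of 15122 genes did (0.172%; 17 higher, 0.112%, and 9 lower, 0.0595%). At an unadjusted p under 0.05 there were 13 members, 19.4% of 67, against 15.2% of all genes, and DESeq2's Wald test called 1 member after adjustment. The 13 were uneven in direction, with 11 higher in knockout (16.4%, against 7.53% of all genes) and 2 lower (2.99%, against 7.66%). The groups did not overlap for 13 members, against 20.9% of all genes: 10 lay above wild type (14.9%, against 11.3%) and 3 below (4.48%, against 9.56%). 28 of 67 members had a negative log2 fold change (41.8%), against 50.5% of all genes. The median log2 fold change of the members was 0.04, with quartiles of -0.09 and 0.31, and that of all genes -0.01, with quartiles of -0.31 and 0.31. 60 members (89.6%) lay within 0.5 of 0 on the log2 scale, against 70.8% of all genes.

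These counts moved when single libraries were left out and when transcript length and GC content were corrected for together. The number of members higher at an unadjusted p under 0.05 ranged from 3 to 14 when 1 library was left out: 3 without knockout library 2 (4.48%, against 5.26% of all genes), 5 without knockout library 1 (7.35%, against 4.35%), 5 without wild-type library 2 (7.35%, against 6.71%), 6 without wild-type library 1 (8.82%, against 6.98%), 8 without knockout library 3 (11.8%, against 5.43%) and 14 without wild-type library 3 (20.9%, against 9.98%). It was 4 after a correction of each library for transcript length and GC content (5.97%, against 5.24% of all genes). Without wild-type library 1, wild-type library 2 or knockout library 2, and with the correction, the members' share lay within 2 percentage points of that of all genes. Across the 67 members the log2 fold change had a Spearman rho of -0.43 with the length of the longest transcript, and across 15111 genes of -0.26; genes share libraries and are not independent. The rho was -0.21 with GC content and -0.02 with the level per kilobase. The short members at the high end were mostly Sm core genes, whose median transcript length was 1237.5 nucleotides, against 3106 for all members and 4065 for the PRPF genes.

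**Figure D2:**
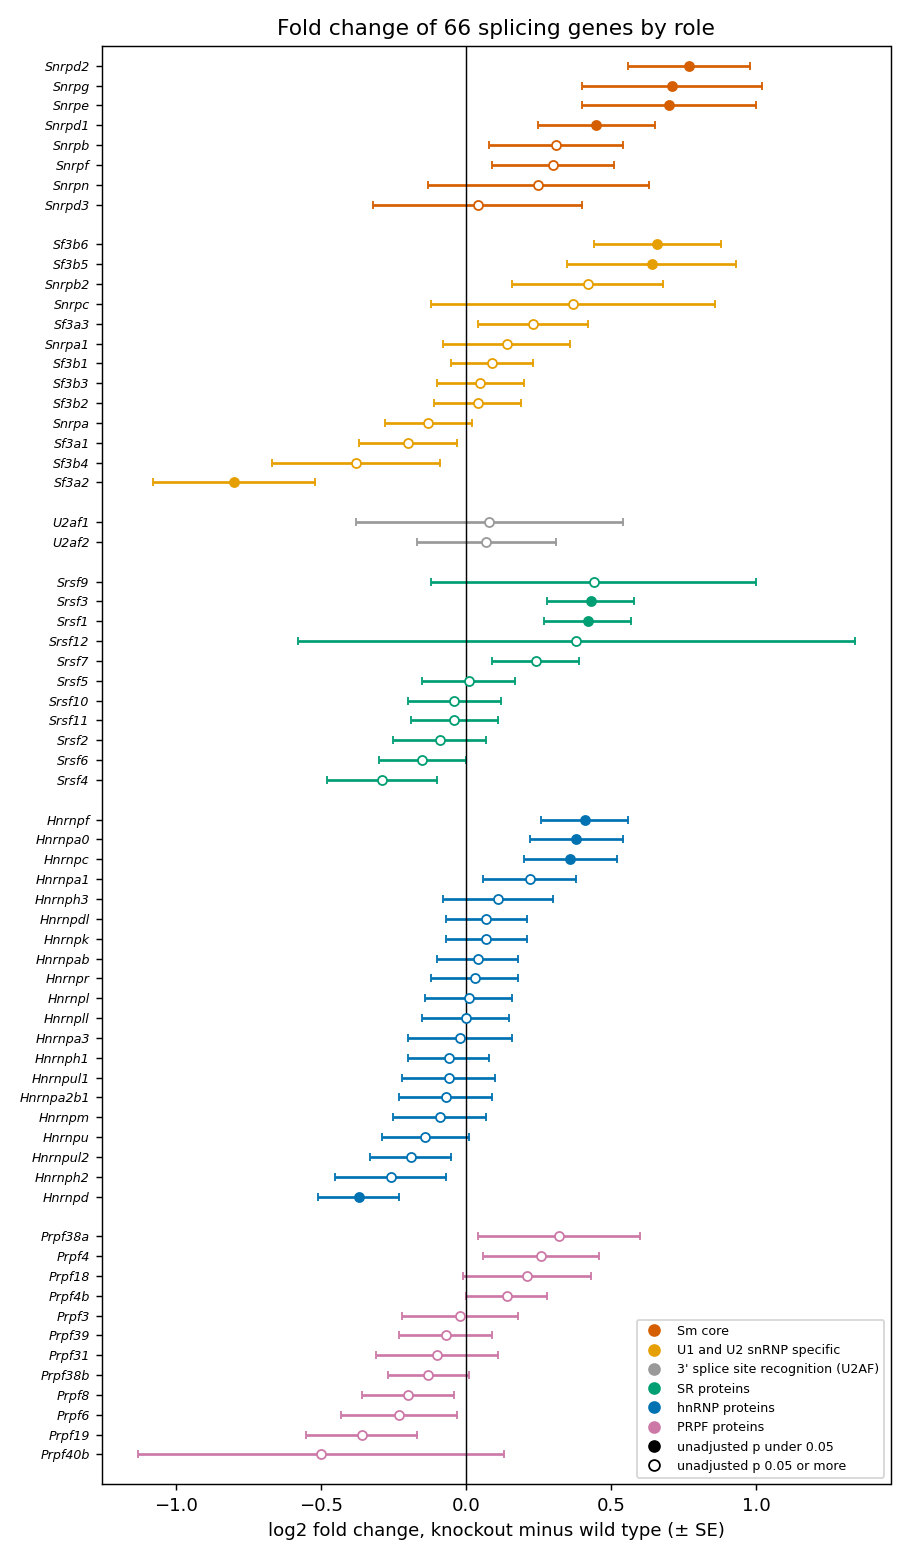
Log2 fold change of 66 of the 67 tested genes, knockout minus wild type, with standard errors as bars, grouped by role; filled circles have an unadjusted p under 0.05 and none an adjusted p under 0.05. The Sm core lies to the right of 0, between 0.04 and 0.77, while hnRNP genes lie between -0.37 and 0.41 and PRPF genes between -0.50 and 0.32.

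The 8 Sm core genes encode the proteins of the ring that loads onto the U1, U2, U4 and U5 RNAs, with Snrpn as a close relative of Snrpb. Their median log2 fold change was 0.38, with quartiles of 0.29 and 0.71. All 8 values were positive under TMM, DESeq2 size factors and upper-quartile scaling, but Snrpd3 and Snrpf were at -0.02 and -0.03 after correction for length and GC content, and Snrpd3 also turned negative when wild-type library 1 or 3 or knockout library 2 was left out. Summed over the 8 genes, the level was 52.1, 47.9 and 66.3 CPM in the 3 wild-type libraries against 84.2, 77.0 and 69.8 CPM in the 3 knockout libraries. The sums did not overlap, at 55.4 ± 9.67 and 77.0 ± 7.21 CPM (mean ± SD, n = 3 each), although wild-type library 3 and knockout library 3 were close to each other. Wild-type library 3 is also the one set apart by its stromal and goblet marker sums, given above, whose part in these values was not tested. At an unadjusted p under 0.05, 4 of the 8 were higher in knockout and 0 lower, against 7.53% and 7.66% of all genes. 0 of the 8 passed the adjusted threshold. After correction for length and GC content the median of the 8 was 0.15 and 1 of the 8, Snrpd2, kept an unadjusted p under 0.05.

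Snrpd2 (ENSMUSG00000040824, chr7:19149722-19153542, plus strand, mm10 as for the genes below), which encodes SmD2, was at 9.36, 7.68 and 12.6 CPM in wild type against 18.0, 17.6 and 15.0 CPM in knockout. Every knockout library was above every wild-type library. Its log2 fold change was 0.77 ± 0.21 (SE), a 1.70-fold higher level, with an unadjusted p of 0.00333 and an adjusted p of 0.127; no other member had a lower p. It passed the adjusted threshold in DESeq2's Wald test (adjusted p = 0.0329), with no filter on low counts (0.0232) and without wild-type library 3 (0.0307). After correction for length and GC content its log2 fold change was 0.60, with an adjusted p of 0.28. Its processed pseudogene Gm10120, which shares 50-base words with it, was far lower, at 0.859 ± 0.183 and 1.14 ± 0.338 CPM.

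Snrpe (ENSMUSG00000090553, chr1:133603871-133610291, minus strand), encoding SmE, was at 3.61, 3.89 and 7.63 CPM in wild type against 9.43, 7.75 and 7.56 CPM in knockout. Wild-type library 3 lay among the knockout libraries, so the groups overlapped. The log2 fold change was 0.70 ± 0.30, with an adjusted p of 0.284, and became 1.14 (adjusted p = 0.0368) once wild-type library 3 was left out. Snrpe shares 20.8% of its 50-base words with other genes. Its processed pseudogene Snrpert was far lower but also higher in knockout, at 0.516 ± 0.102 CPM in wild type against 1.20 ± 0.383 CPM in knockout. Snrpg (ENSMUSG00000057278, chr6:86371304-86379328, plus strand), encoding SmG, was at 2.46, 2.62 and 4.48 CPM in wild type against 5.02, 5.86 and 4.82 CPM in knockout. Its groups did not overlap, with wild-type library 3 just below the lowest knockout library. The log2 fold change was 0.71 ± 0.31, with an adjusted p of 0.293. Snrpg shares 18.6% of its 50-base words with its processed pseudogene Gm8186, which had more counts than Snrpg itself (725 and 616 over the 6 libraries) and was also higher in knockout, at 4.02 ± 0.784 and 5.87 ± 0.672 CPM. The sources used here do not say how counting divided reads between the copies, so the level of Snrpg is uncertain.

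Snrpd1 (ENSMUSG00000002477, chr18:10617775-10642079, plus strand), encoding SmD1, was at 11.7, 8.95 and 12.2 CPM in wild type against 17.8, 14.2 and 12.9 CPM in knockout. All 3 knockout libraries were above the wild-type libraries, the lowest of them by little. It differed by 0.45 ± 0.20 on the log2 scale, with an adjusted p of 0.323, and it was 0.13 after correction for length and GC content. Snrpb, which encodes SmB, was at 13.6, 9.23 and 17.2 CPM in wild type against 19.1, 14.9 and 15.7 CPM in knockout, and its groups overlapped (0.31 ± 0.23). Of the other 3, named after their values were seen, Snrpf differed by 0.30 ± 0.21, Snrpn by 0.25 ± 0.38 and Snrpd3 by 0.04 ± 0.36. Snrpf shares 89.5% of its 50-base words with other genes. Among these Ccdc38, Gm13092 and 4933408J17Rik held 1112 counts over the 6 libraries beside 1116 for Snrpf. Ccdc38 and 4933408J17Rik overlap Snrpf on the opposite strand, so its level is uncertain. Snrpn shares exons on the same strand with Gm38393, a predicted coding gene that was at 1.24 ± 0.196 CPM in wild type against 2.98 ± 0.489 CPM in knockout (log2 fold change 1.26 ± 0.38, adjusted p = 0.151), so the counts of the pair are uncertain.

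**Figure D3:**
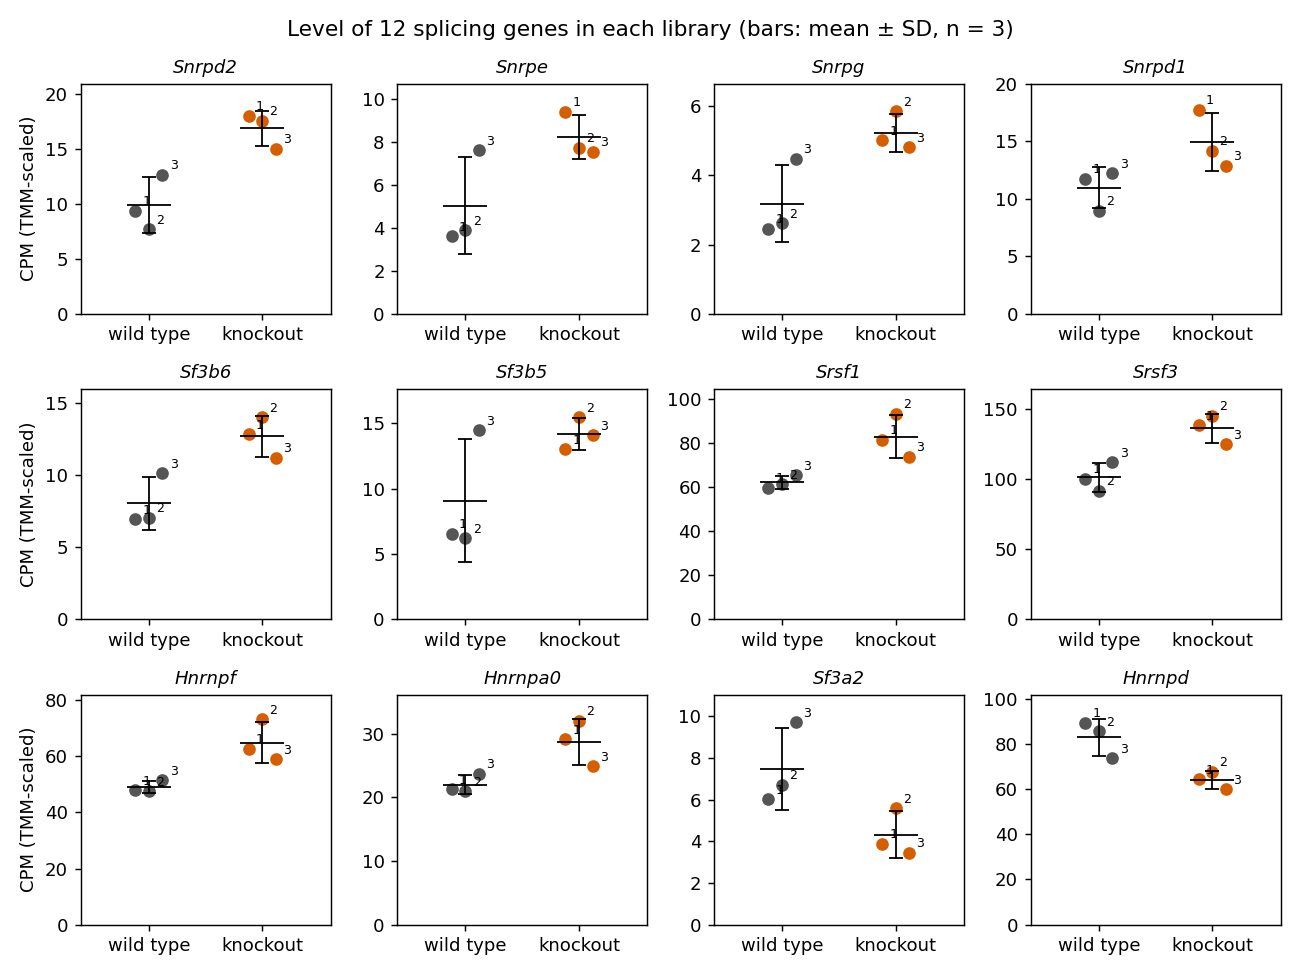
Level of 12 members in each library in TMM-scaled CPM on axes that start at 0, with wild type in grey and knockout in orange, numbers for the replicates and bars for the mean ± SD of 3 libraries. Wild-type library 3 lies near the knockout libraries for Snrpe, Snrpg and Sf3b5, whereas both groups stand apart for Snrpd2, Sf3b6, Srsf1, Srsf3 and Hnrnpf.

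The 13 genes of U1- and U2-specific proteins did not move as a block. Their median log2 fold change was 0.09, with a range from -0.80 to 0.66, and their summed level was 292 ± 13.9 CPM in wild type against 304 ± 6.86 CPM in knockout, a difference smaller than the wild-type SD. 2 were higher (15.4%, against 7.53% of all genes) and 1 lower (7.69%, against 7.66%) at an unadjusted p under 0.05. These 3 are subunits of SF3A and SF3B, the U2 subcomplexes at the branch point. Sf3b6 (ENSMUSG00000037361, chr12:4817544-4827659, plus strand), whose protein p14 contacts the branch point region, was at 6.94, 7.02 and 10.1 CPM in wild type against 12.8, 14.0 and 11.2 CPM in knockout. The groups did not overlap, and wild-type library 3 was the nearest to knockout. It differed by 0.66 ± 0.22 on the log2 scale, with an adjusted p of 0.183. Sf3b5 (ENSMUSG00000078348, chr10:13005343-13009183, plus strand), a small SF3B subunit, was at 6.55, 6.20 and 14.5 CPM in wild type against 13.0, 15.5 and 14.1 CPM in knockout. Wild-type library 3 sat within the knockout range. The log2 fold change of Sf3b5 was 0.64 ± 0.29, with an adjusted p of 0.327, and became 1.16 (adjusted p = 0.0208) once that library was left out.

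Sf3a2 (ENSMUSG00000020211, chr10:80798198-80804924, plus strand), an SF3A subunit, went the other way, at 6.03, 6.71 and 9.71 CPM in wild type against 3.89, 5.58 and 3.45 CPM in knockout. Every knockout library was below every wild-type library. Its log2 fold change of -0.80 ± 0.28, a 1.74-fold lower level, was the lowest of all members, with an adjusted p of 0.214, and was -0.76 after correction for length and GC content. Plekhj1 overlaps it on the opposite strand and was at 2.76 ± 0.565 and 1.82 ± 0.663 CPM; without the strand setting of the counting, reads of the pair cannot be told apart. The large subunit Sf3b1 was at 100.3, 95.9 and 89.6 CPM in wild type against 100.2, 100.3 and 104.0 CPM in knockout (0.09 ± 0.14). Snrpa was at 28.4, 30.3 and 35.3 CPM in wild type against 28.5, 28.7 and 28.9 CPM in knockout (-0.13), with wild-type library 3 the highest and overlapping groups. Over the 9 members with an Sf3a or Sf3b symbol, the sum was 243 ± 11.9 CPM in wild type against 254 ± 5.0 CPM in knockout.

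The U2AF subunits, which recognise the polypyrimidine tract and the AG of the 3′ splice site, differed by less than the spread between libraries. U2af2, the large subunit, was at 12.4, 11.9 and 22.6 CPM in wild type against 16.2, 16.9 and 16.3 CPM in knockout. Wild-type library 3 was above and the others below all knockout libraries, and the log2 fold change was 0.07 in all and 0.44 without that library. U2af1, the small subunit, was at 0.913, 1.48 and 2.21 CPM in wild type against 1.36, 1.57 and 1.94 CPM in knockout (0.08 ± 0.46), with overlapping groups. U2af1 shares 58.9% of its 50-base words with the pseudogenes Gm10232 and Gm18959, so its low level is uncertain. For U2af1l4 this share is 97.2%, with the overlapping gene Gm49396. Gm49396 held 120 counts beside 65 for U2af1l4, both low. It was at 1.13 ± 0.609 CPM in wild type against 0.296 ± 0.028 in knockout (-1.92 ± 0.67, adjusted p = 0.209), without overlap of the groups. The counts of the pair are therefore uncertain.

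Of the 11 SR genes 2 were higher in knockout at an unadjusted p under 0.05 (18.2%, against 7.53% of all genes) and 0 lower (against 7.66%). In either direction the share was 18.2% against 15.2% of all genes. The groups did not overlap for 4 of the 11 (36.4%, against 20.9% of all genes), 3 with knockout above and 1 below. The median log2 fold change of the 11 was 0.01, with a summed level of 558 ± 32.7 CPM in wild type against 609 ± 42.0 CPM in knockout. Srsf3 (ENSMUSG00000071172, chr17:29032628-29043373, plus strand), the smallest SR protein and an adaptor for mRNA export, was at 99.9, 91.5 and 112 CPM in wild type against 138, 145 and 125 CPM in knockout. Srsf1 (ENSMUSG00000018379, chr11:88047373-88053755, plus strand), which promotes 5′ splice site use, was at 59.7, 61.2 and 65.4 CPM in wild type against 81.6, 93.3 and 73.7 CPM in knockout. For both genes every knockout library was above every wild-type library. The log2 fold changes were 0.43 ± 0.15 and 0.42 ± 0.15, or 1.34-fold and 1.33-fold, with adjusted p of 0.205 and 0.214. They moved little with the length and GC correction, to 0.38 and 0.44.

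Srsf3 shares 31.5% of its 50-base words with Gm12355 and Gm9761; the latter is a processed pseudogene at 15.1 ± 1.63 CPM in wild type against 19.1 ± 2.65 CPM in knockout, far below Srsf3. The 2 SR genes of highest level per kilobase differed little. Srsf5 was at 105, 81.9 and 119 CPM in wild type against 102, 103 and 103 CPM in knockout (0.01), and Srsf2 at 106, 113 and 124 CPM and 102, 130.2 and 91.2 CPM (-0.09). Both sets of groups overlapped, and knockout varied little for Srsf5. The sign of Srsf5 turned to -0.01 with DESeq2 size factors. Its processed pseudogene Gm12966 held 9890 counts beside 15379 for Srsf5 and was lower in each knockout library, at 74.0 ± 4.09 and 54.7 ± 12.7 CPM (-0.44 ± 0.18, adjusted p = 0.268). Named after their values were seen, Srsf7 had knockout libraries above wild type (0.24 ± 0.15, adjusted p = 0.477) and Srsf4 below (-0.29 ± 0.19, adjusted p = 0.499). Srsf4 shares 65.35% of its 50-base words with other genes, and Srsf2 35.19%. Gm12992, opposite Srsf4, held 1276 counts beside 1925 for Srsf4. Mettl23 and Mfsd11, opposite Srsf2, held 7625 beside 16805 for Srsf2. The levels of Srsf4 and Srsf2 are uncertain to that extent.

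SR genes regulate their own level through splice forms that are degraded by nonsense-mediated decay (NMD), and the annotation lists such a form for 9 of 11 SR genes, 10 of 20 hnRNP genes, 2 of 8 Sm core genes, 3 of 13 U1- and U2-specific genes and 7 of 13 PRPF genes, 34 of 68 members in all. 50 of 68 have an annotated transcript with a retained intron. The counts are per gene and do not separate these forms. Over the 67 members the log2 fold change had a Spearman rho of -0.17 with the number of NMD forms and -0.25 with that of retained-intron forms, both given as a description of genes that share libraries.

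The 20 hnRNP genes centred on 0, with a median log2 fold change of 0.00, quartiles of -0.07 and 0.08 and 10 negative values. Their summed level, 1425 ± 83.4 CPM in wild type against 1406 ± 93.1 CPM in knockout, was the highest of the families and differed by less than the SD of either group. 3 of the 20 were higher and 1 lower at an unadjusted p under 0.05, against 7.53% and 7.66% of all genes. The groups did not overlap for these 4 of the 20, a share close to the 20.9% of all genes. Hnrnpf (ENSMUSG00000042079, chr6:117900324-117925622, plus strand), which binds G-rich tracts near splice sites, was at 48.0, 47.5 and 51.5 CPM in wild type against 62.7, 73.2 and 58.9 CPM in knockout. The wild-type libraries lay close together, with knockout library 2 the farthest above them. Hnrnpf differed by 0.41 ± 0.15 on the log2 scale, with an adjusted p of 0.22. It shares 67.3% of its 50-base words with other genes. The 8 genes that each share at least 10% held 694 counts in all, beside 8389 for Hnrnpf. 4933440N22Rik and Gm43863 overlap Hnrnpf on the opposite strand, so its level is uncertain to that extent.

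Hnrnpa0 (ENSMUSG00000007836, chr13:58125879-58128556, minus strand), a gene with a single annotated transcript whose protein binds AU-rich RNA, was at 21.3, 20.9 and 23.7 CPM in wild type against 29.1, 32.0 and 24.9 CPM in knockout (0.38 ± 0.16, adjusted p = 0.274). Hnrnpc (ENSMUSG00000060373, chr14:52073377-52104028, minus strand), which binds uridine tracts and competes with U2AF, was at 40.3, 31.4 and 41.1 CPM in wild type against 53.4, 48.6 and 42.9 CPM in knockout (0.36 ± 0.16, adjusted p = 0.31). In both, knockout library 3 was only just above the highest wild-type library. Hnrnpd (ENSMUSG00000000568, chr5:99955935-99978938, minus strand) encodes AUF1, a protein that binds AU-rich elements, and was at 89.3, 85.5 and 73.7 CPM in wild type against 64.3, 67.6 and 59.8 CPM in knockout. All knockout libraries were below wild type. The log2 fold change was -0.37 ± 0.14, with an adjusted p of 0.246, and -0.29 after correction for length and GC content.

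The hnRNP genes with the highest level per kilobase did not separate the groups. Hnrnpa2b1 was at 304, 282 and 364 CPM in wild type against 265 to 342 CPM in knockout (-0.07). Hnrnpab was at 135, 143 and 141 CPM in wild type against 154, 149.5 and 127 CPM in knockout (0.04). The groups overlapped for both genes. Hnrnpab shares exons on the opposite strand with Phykpl, which was at 85.2 ± 5.20 and 90.0 ± 5.94 CPM, and the sources used here do not give the strand setting.

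The 13 PRPF genes, which serve the tri-snRNP, its activation and, for some, the U1 particle, were on the low side of 0. None of them had an unadjusted p under 0.05, against 15.2% of all genes. 9 of 13 had a negative log2 fold change, against 50.5% of all genes, with a median of -0.07, a range from -0.50 to 0.32 and a summed level of 372 ± 21.5 CPM in wild type against 349.9 ± 16.4 CPM in knockout. Prpf8, the scaffold around the catalytic centre, was at 116, 148 and 112 CPM in wild type against 108, 123 and 98.0 CPM in knockout (-0.20), and its value was -0.00 after correction for length and GC content. Prpf38b, a relative of the tri-snRNP protein Prpf38a, was at 45.9, 49.0 and 54.8 CPM and 43.8, 48.4 and 44.2 CPM (-0.13). Prpf19, the ubiquitin ligase of the Prp19 complex, had the lowest p of the family, at 22.2, 17.4 and 14.4 CPM in wild type against 14.8, 13.4 and 13.9 CPM in knockout. Knockout library 1 lay above wild-type library 3, so the groups overlapped (-0.36 ± 0.19, unadjusted p = 0.0881, adjusted p = 0.415).

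**Figure D4:**
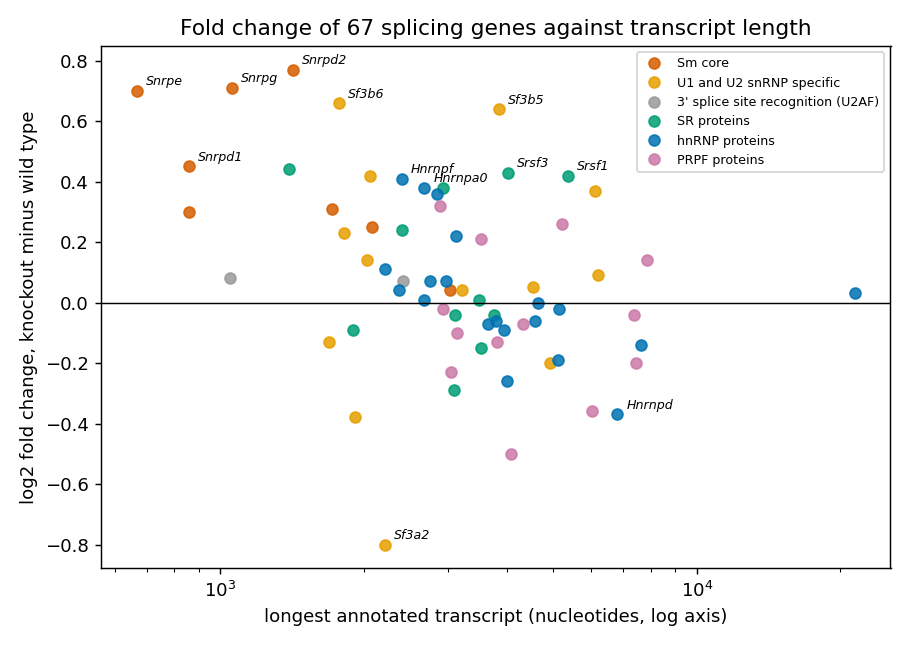
Log2 fold change, knockout minus wild type, of the 67 tested genes against the length of their longest annotated transcript in nucleotides on a log axis, coloured by role, with some genes labelled by name. Short Sm core genes such as Snrpe, Snrpg and Snrpd2 lie at the upper left, and the Spearman rho over the 67 genes is -0.43.

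In wild type 1 library stood apart from the other 2 for several members of low count. These examples were chosen after their values were seen. In wild-type library 2, Srsf9 was at 0.413 CPM against 2.54 and 3.19 CPM in the other wild-type libraries, and Snrpc at 0.62 CPM against 1.75 and 1.51 CPM. The same library was high for Sf3b4, at 14.5 CPM against 5.99 and 10.1 CPM, for Snrpd3, at 6.47 CPM against 2.86 and 2.87 CPM, and for Prpf40b, at 4.30 CPM against 1.19 and 0.662 CPM. Wild-type library 3 was high for Sf3b5, Snrpe and U2af2, as given above. Srsf12, the member of lowest level among those tested, had 29, 4 and 1 counts in wild type and 13, 13 and 10 in knockout. Over all tested members the libraries differed little, since the median deviation from the mean over the 6 libraries was -0.06, -0.04 and 0.05 in wild type and 0.07, 0.07 and -0.02 in knockout on the log2 scale.

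Splicing genes whose symbols do not match the pattern of the members were read from 6 lists, of which 134 of 135 genes were tested. 0 passed the adjusted threshold in edgeR's test, and at an unadjusted p under 0.05 there were 7 higher (5.22%, against 7.53% of all genes) and 14 lower (10.4%, against 7.66%). Their median log2 fold change was -0.06 and their summed level 3932 ± 139 CPM in wild type against 3552 ± 4.02 CPM in knockout. Exon junction complex and SR-related genes were 2 higher (11.8%) and 4 lower (23.5%) of 17, against 7.53% and 7.66% of all genes. Their sum was 829.8, 873 and 852 CPM in wild type against 687, 674 and 720.2 CPM in knockout. Srrm2, a large scaffold of nuclear speckles, made most of that gap, at 303, 362 and 308 CPM in wild type against 215, 205 and 249 CPM in knockout (-0.54 ± 0.15, adjusted p = 0.132). Acin1 of the same list differed by -0.43 ± 0.15 (adjusted p = 0.194). The groups did not overlap for either gene.

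Of 44 other splicing regulators 0 were higher and 5 lower (11.4%) at an unadjusted p under 0.05, against 7.53% and 7.66% of all genes. Their median was -0.11, and the lowest p were those of Cherp (-0.51 ± 0.17, adjusted p = 0.194) and Elavl1 (-0.54 ± 0.19, adjusted p = 0.214). Other snRNP proteins and factors that act with them were 2 higher (7.69%) and 1 lower (3.85%) of 26. Among these factors Sf1 is not an snRNP protein and binds the branch point before U2 does. It was at 34.6, 51.3 and 41.4 CPM in wild type against 25.3, 29.0 and 30.2 CPM in knockout (-0.59 ± 0.17, adjusted p = 0.142). Snu13, a U4 and box C/D protein of the same list, differed by 0.40 ± 0.16. LSm genes were 1 higher and 1 lower of 9 (11.1% each). Most of them encode the ring of the U6 RNA, with Lsm1 in a cytoplasmic decay ring and Lsm10 and Lsm11 in the U7 particle. Of the U6 ring, Lsm4 differed by 0.48 ± 0.18 and Lsm2 by -0.79 ± 0.26. Factors of the Prp19 complex and the catalytic steps were 2 higher (6.45%) and 3 lower (9.68%) of 31, with Smu1 at 0.50 ± 0.15 and Cwc15 at 0.59 ± 0.20. None of 7 kinases of SR proteins had an unadjusted p under 0.05, against 15.2% of all genes.

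**Figure D5:**
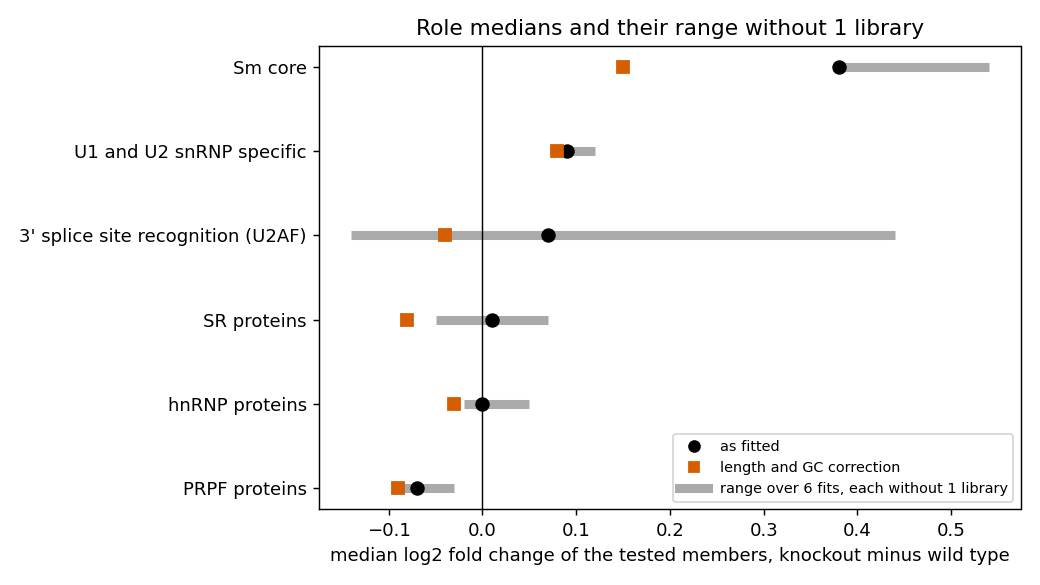
Median log2 fold change of the tested members of each role as fitted (black circles), after correction for transcript length and GC content (orange squares) and as the range over 6 fits that each left out 1 library (grey bars). The Sm core median of 0.38 drops to 0.15 with the correction and runs up to 0.54 without wild-type library 3; the other medians stay within 0.12 of 0, apart from U2AF, where 2 genes were tested.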

How the data were processed

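Total RNA of the 3 wild-type and 3 knockout samples was amplified by the Ovation Pico WTA kit and libraries were made with Nextera DNA Flex, per the labels. Values are the authors' raw read counts per Ensembl gene, deposited without normalization. The submitters' processing notes name STAR 2.6.1, HTSeq and mm10; the sources used here do not give the annotation release or the strand setting. Symbols, positions and lengths came from GENCODE vM21 of that build.

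R 4.3.3 and edgeR 4.0.16 were used for the analysis of the counts. filterByExpr (count minimum 10, total 15) left 15122 of 28564 genes and TMM gave the scaling. glmQLFit and glmQLFTest, with genotype as the only term, tested the difference, with Benjamini-Hochberg adjustment over all genes tested and a threshold of 0.05. The common biological coefficient of variation was 0.298. SE is the absolute log2 fold change divided by the root of F. Libraries of 1 group differed beyond counting noise (chi-square per degree of freedom of 8.32 to 61.2 over genes), so each was kept as a replicate. P-values measure the spread between these samples, which may be partly technical. The fit was tested on simulated data with 200 changed genes among 14719 tested. It called 4.08% of those changed 1.5-fold, and 36.0% of those changed 2-fold. For 3-fold and 4-fold changes the shares were 66.7% and 77.8%, and 7 of 94 calls were false.

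Members, roles and lists were chosen with earlier results of these data known. Named by rule are, per role, up to 3 members of lowest unadjusted p under 0.05 in each direction (otherwise the 1 of lowest p), the 2 of highest level per kilobase, those below the filter, and up to 2 genes per other list. Other members, such as those singled out for a wild-type library, were named after their values were seen. 1 member, which the rule did not name, is not reported here by itself and is counted only in sums over members. A copy is a gene that shares at least 10% of a member's 50-base words. Alternatives covered the scaling (DESeq2 size factors or upper quartile), the Wald test of DESeq2 1.42.0, 2 other filters, the replicate number as a block, a per-library correction for the length of the longest transcript and GC content (splines with 4 degrees of freedom each) with and without the block, the table without its 5 most abundant entries, and leaving out each library.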

Additional observations from a re-analysis of the deposited data

How the results depend on the processing

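None of the 67 tested members passed an adjusted p of 0.05 in edgeR's test, and this count was 1 with DESeq2's Wald test and 1 with no filter on low counts (Snrpd2 both times), 3 without wild-type library 3 (Sf3b5, Snrpd2 and Snrpe), and 0 to 3 over the fits without 1 library. Members lower at an unadjusted p under 0.05 numbered 2, and 1 with the length and GC correction, alone or with the replicate block; without 1 library they numbered 0 to 2. Members higher at that p numbered 11, then 4 with the correction and 5 with the correction and the block, and 3 to 14 without 1 library. The 26 calls over all genes became 1 with DESeq2 size factors, 1 with upper-quartile scaling, 581 with DESeq2's Wald test, 629 with no filter, 117 with at least 1 CPM in 3 libraries, 1 with the length and GC correction, 1 without the 5 most abundant entries, and 0 to 358 without 1 library, 358 being the count without wild-type library 3. The cause of these moves was not tested. The members' median log2 fold change of 0.04 stayed between -0.01 and 0.07 in all alternatives run.

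The labels do not say whether replicate numbers shared between the groups pair the samples. Deviations of same-numbered libraries correlated at 0.0406, 0.0569 and 0.0109. A correlation over genes cannot decide whether samples were paired. With the replicate number as a block, 173 genes and 0 members passed; with the block and the length and GC correction, 27 genes did. The block changed the call of no named member.

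In at least 1 alternative 27 of the 67 members took the other sign, 20 of them members within 0.1 of 0. The other 7 were Snrpf, Snrpa1 and Hnrnph3 with the length and GC correction, Srsf9, Srsf12 and Prpf40b without wild-type library 2 (Srsf12 also without wild-type library 3), and Prpf31 without wild-type library 3 or knockout library 3. The lowest unadjusted p among the 7 at the other sign was 0.282, for Prpf40b, at -0.50 in all and 0.64 without that library. Without 1 library Hnrnpa2b1 (-0.07) ranged from -0.16 to 0.05, with 0.02 without knockout library 3, and Srsf2 (-0.09) from -0.24 to 0.02. Hnrnpab (0.04) ranged from -0.01 to 0.13, Srsf5 (0.01) from -0.14 to 0.14, U2af2 (0.07) from -0.10 to 0.44, with -0.08 without wild-type library 1, and U2af1 (0.08) from -0.20 to 0.44, with -0.07 without knockout library 3. With the length and GC correction Hnrnpab was at -0.06, Srsf5 at -0.08 and U2af1 at -0.10; with the block added they were at -0.06, -0.06 and -0.04. Srsf5 was at -0.01 both with DESeq2 size factors and with DESeq2's Wald test. At this depth and number of libraries small changes were seldom called in simulated counts: 4.08% of genes changed 1.5-fold, against 36.0% of those changed 2-fold. These genes were drawn from all genes that passed the filter. The members had higher and steadier levels than most genes, so the shares may differ for them.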
